A study of Mus musculus with 8 samples.

Results

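The 10 genes described here encode factors of the core pluripotency network of the mouse, in the order Pou5f1, Nanog, Sox2, Sall4, Utf1, Zfp42, Esrrb, Klf4, Dppa4 and Dppa5a. They were taken by gene symbol from 19938 genes measured on microarrays of primordial germ cells (PGCs), from which sperm and eggs descend. Each gene was represented by the probe set, called a probe below, that carried its symbol alone and had the highest mean. The samples were 4 mutant embryos homozygous for the Y324C allele of Ror2 (Ror2Y324C/Y324C) and 4 WT embryos (Ror2+/+), all at embryonic day 9.5 and of mixed strain, with 1 array for each embryo. Ror2 is a receptor tyrosine kinase of Wnt5a signalling. The parents were heterozygous for the allele and the fathers were homozygous for Oct4-ΔPE, a green fluorescent reporter driven by regulatory sequence of Pou5f1, so mutant and WT embryos both carried it. Posterior tissue of single embryos was dissociated in trypsin, and fluorescent cells were sorted straight into lysis buffer. Mutant embryos 1 to 4 had 24, 22 to 23, 23 and 21 to 22 somites, and WT embryos 1 to 4 had 25, 25, 22 and 21 somites. The somite, a segment of the trunk, is the usual count for staging embryos of this age.

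Pluripotency is the ability of a cell to give rise to all tissues of the embryo. Pou5f1 (Oct4), a POU-domain transcription factor, binds DNA together with the HMG-box factor Sox2 at a composite element of adjoining octamer and Sox sites, and the homeodomain factor Nanog binds at many of the same enhancers. Migrating mouse PGCs are not pluripotent in the embryo, but they transcribe much of this network and can be turned into pluripotent stem cells in culture. Around this centre stand the zinc finger factor Sall4, the chromatin-bound factor Utf1, the orphan nuclear receptor Esrrb, the Krüppel-like factor Klf4, the zinc finger protein Zfp42 (Rex1), the chromatin protein Dppa4 and the RNA-binding protein Dppa5a.

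Nanog, Sox2 and Zfp42 carry an octamer core in the stretch of 250 bases before to 50 bases after an annotated start. This stretch was available in RefSeq (GRCm38.p6) for 7 of the 10 genes in 10 windows, and not for Sall4, Dppa4 or Dppa5a. The 3 matching promoters are shown because the letters are those bound by Oct4 and its partner, with capitals for the octamer core ATGCAAA, read on either strand, and in Nanog for the whole composite TTTGCATNACAA.
Nanog, chr6:122707364-122707470, plus strand: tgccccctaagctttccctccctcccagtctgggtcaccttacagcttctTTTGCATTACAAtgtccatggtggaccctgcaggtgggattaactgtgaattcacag
Sox2, chr3:34649846-34649952, plus strand: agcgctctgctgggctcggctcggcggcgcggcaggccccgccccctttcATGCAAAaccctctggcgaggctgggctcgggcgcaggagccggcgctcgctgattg
Zfp42, chr8:43307138-43307244, minus strand: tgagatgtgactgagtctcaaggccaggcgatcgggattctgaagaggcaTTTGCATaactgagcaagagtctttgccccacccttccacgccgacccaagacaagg
Of the 27025 genes with such windows, 5.24% held the octamer core in at least 1 window. The composite was held by 0.037% (10 genes), Nanog among them. The composite of Nanog includes its octamer core, and it lies 75 bases before the first and 151 bases before the second annotated start. Its last bases overlap a match to the Sox core ACAATG. This core was present in windows of Esrrb, Nanog and Pou5f1 and of 14.3% of the 27025 genes. The nuclear receptor half-site AGGTCA, the type of letters that Esrrb binds, was present in windows of Nanog, Pou5f1 and Sox2 and of 18.1% of these genes. The GC box GGGCGG, found in windows of 38.2% of these genes, was present in Klf4, Pou5f1, Sox2, Utf1 and Zfp42. A match describes the letters of a window and does not show that a factor was bound.

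Signals are given as deposited, read here as log2 values because of their range. All 9 germ cell markers looked at (Dppa3, Prdm1, Prdm14, Tfap2c, Kit, Nanos3, Alpl, Dnd1 and Ifitm3) had a mean signal above the median of all genes (5.61), and 6 of them lay above the 90th percentile. Over these 9 markers, the mean signal ran from 9.72 to 9.92 on mutant arrays and from 9.59 to 9.92 on WT arrays. Of the markers of cells near the PGCs, those above this median numbered 4 of 8 for hindgut, 3 of 7 for endothelium, 3 of 8 for neural tube, 3 of 8 for trunk mesenchyme, 3 of 8 for surface ectoderm, 3 of 7 for macrophages and 2 of 7 for primitive erythroid cells. Probes differ in brightness, so these counts do not give the share of any cell type. The mean of the markers of hindgut, the tissue through which the cells migrate, was 6.10 to 6.45 on mutant arrays and 6.02 to 6.59 on WT arrays. It was highest on WT 4, where the keratins of simple epithelia Krt18 and Krt8 were highest. Krt18 was at 6.56 to 7.62 on mutant arrays, 9.47 on WT 4 and 7.37 to 7.70 on the other WT arrays. Krt8 was at 7.87 on WT 4 and 7.71 on mutant 4. Foxa2 was highest on WT 4 by little (5.74, against 5.73 on WT 3). The other hindgut markers were not highest there, and Cdx2 (7.87) and Apoa1 (5.72) were among their lowest values. The median of all probes was between 5.37 and 5.58 on every array. The array of WT embryo 3 stood apart. Its values were the narrowest, with an SD over genes of 1.77 against 1.82 to 1.95 on the other 7 arrays, and it had the lowest mean for germ cell markers and the highest for erythroid, macrophage, mesenchyme, neural tube and surface ectoderm markers. The lead was small for neural tube markers (5.49, against at most 5.44 on the other arrays) and surface ectoderm markers (5.50, against at most 5.47). WT 3 was the highest array for 3 of 8 and 2 of 8 of these markers, and for 24.2% of all genes. WT 3 was also 1 of the 2 arrays, with mutant 4, that had high Xist, the RNA of X inactivation. These 2 arrays were the lowest for the Y chromosome genes Eif2s3y, Uty and Kdm5d. Eif2s3y was 3.17 on WT 3, 2.87 on mutant 4 and 7.86 to 8.75 on the other arrays. By these genes WT 3 and mutant 4 read as female and the other embryos as male. Because WT 3 stood apart, differences are also given without it for the 6 genes that have their lowest or highest value there.

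The signal of 6 of the 10 genes lay near the top of every array. Dppa5a was between the 99.4th and 99.7th percentile of all genes of the same array, which placed it from 52nd to 123rd in the order of signals. Pou5f1 lay between the 99.2nd and 99.4th, Utf1 between the 99.1st and 99.5th, Sox2 between the 98.9th and 99.2nd, and Sall4 between the 98.9th and 99.1st. Nanog was slightly lower, between the 96.7th and 98.1st. Esrrb (83.9th to 92.7th) and Dppa4 (80.1st to 93.7th) formed a middle pair. Zfp42 (43.8th to 77.7th) and Klf4 (43.6th to 58.5th) lay around the middle of the array. Probes differ in how brightly they report a transcript, so these places describe the signal and give no order of transcript abundance between the genes. In RNA of sorted cells, fewer cells of a kind and less RNA per cell cannot be told apart.

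**Figure D1:**
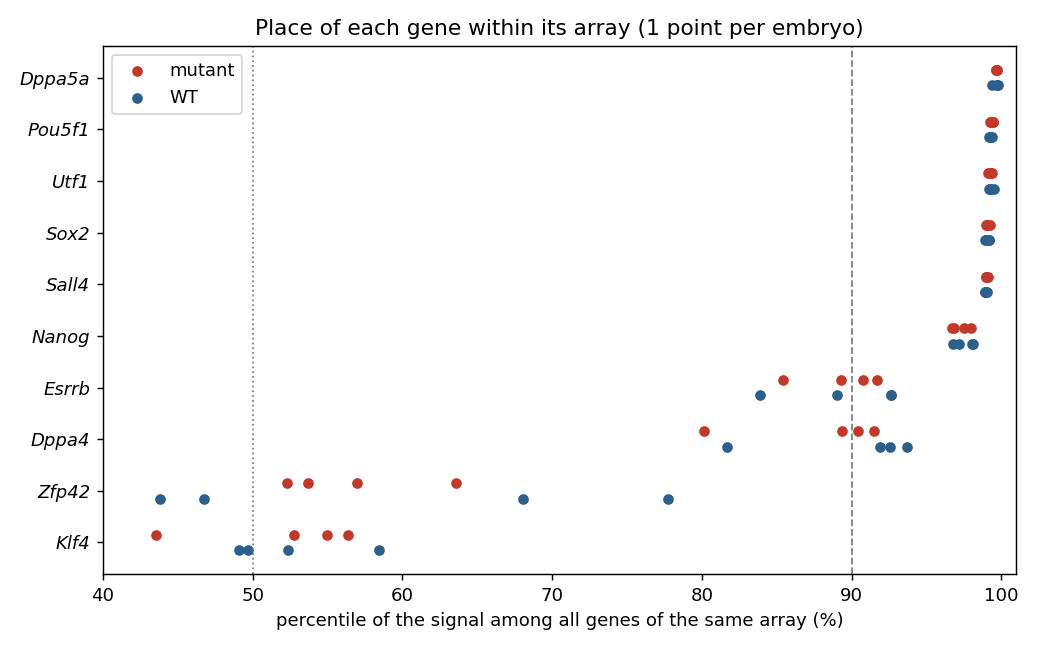
Percentile of each gene's probe signal among all 19938 genes of the same array (x axis, %), with 1 point per embryo, mutant points above WT points within each row and genes in order of mean signal. Dppa5a, Pou5f1, Utf1, Sox2 and Sall4 sit between 98.9 and 99.7 on every array, Esrrb and Dppa4 straddle 90 (dashed line), and Klf4 and Zfp42 straddle 50 (dotted line).

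The first comparison asked whether these genes differ between Ror2 mutant and WT germ cells. No gene passed. With limma, 0 of the 10 genes and 0 of all 19938 genes had an adjusted p under 0.05, and at an unadjusted p under 0.05 the counts were 0 of 10 and 934 of 19938, which is 4.68% (2.72% higher and 1.96% lower in mutants). In each of the 10 genes the mutant and WT values overlapped, while 2.52% of all genes had groups that did not overlap. The estimate was above 0 in 6 of 10 genes against 44.6% of all genes, and the median difference, mutant minus WT, was 0.01 for the 10 genes and -0.02 for all genes. Over all genes, 543 of these unadjusted calls were higher and 391 lower in the mutant arrays, and after median centring the split was 796 and 230.

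Pou5f1 had log2 values of 11.37, 11.13, 11.32 and 11.15 in mutant embryos 1 to 4, and of 11.32, 11.09, 10.91 and 11.22 in WT embryos 1 to 4. The values of both groups were close and intermixed, with WT 3 the lowest of the 8. The means were 11.24 ± 0.12 in mutants and 11.13 ± 0.18 in WT (SD, n = 4 each), which differ by 0.11 (95% interval -0.19 to 0.41), and by 0.03 without WT 3. On the linear scale this interval runs from 0.875-fold to 1.33-fold. The reporter that selected the cells is driven by Pou5f1 sequence, so the level of Pou5f1 is not independent of the sort.

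Sox2, the partner of Oct4 on DNA, had values of 10.87, 10.99, 10.95 and 11.07 in mutants and of 11.12, 10.98, 10.67 and 10.82 in WT. The WT values enclosed all 4 mutant values. The difference was 0.07 (95% interval -0.23 to 0.37) with all arrays and -0.0025 without WT 3, and the SD was 0.08 in mutants and 0.19 in WT. Nanog had values of 9.83, 9.80, 10.29 and 9.995 in mutants and of 9.84, 9.86, 10.12 and 10.23 in WT. Each group held lower and higher embryos, and the difference was -0.03 (-0.38 to 0.32).

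Sall4, a zinc finger factor needed for the early germ line of the mouse, was the steadiest of the 10. Its values were 10.86, 10.91, 11.02 and 10.95 in mutants and 10.90, 10.77, 10.82 and 10.83 in WT. The spread within groups was 0.06 (SD), lower than for all but 0.291% of the genes measured. The groups overlapped only through mutant 1, which lay below WT 1, and the difference was 0.11 with a limma interval from -0.15 to 0.36. This interval is wider than the spread of Sall4 itself would give, because limma draws the variance of each gene toward a common value. Utf1 had values of 11.16, 11.05, 11.22 and 11.30 in mutants and of 11.48, 11.13, 11.07 and 11.03 in WT. WT 1 was the highest, and the difference was 0.00 (-0.31 to 0.32).

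Dppa5a, an RNA-binding protein long used as a marker of embryonic stem cells, had values of 12.07, 11.92, 11.94 and 11.81 in mutants and of 12.04, 11.96, 11.14 and 12.17 in WT. All arrays but WT 3 lay within a narrow band, and the SD was 0.11 in mutants and 0.46 in WT. The difference was 0.11 (95% interval -0.36 to 0.58) with all arrays and -0.12 without WT 3.

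Esrrb, an orphan nuclear receptor that acts downstream of Nanog in embryonic stem cells, had values of 8.78, 8.53, 8.73 and 7.96 in mutants and of 8.998, 8.42, 7.72 and 8.81 in WT. Mutant 4 and WT 3, the arrays of high Xist, were the lowest in their groups. The difference was 0.02 (95% interval -0.60 to 0.64), and it was -0.24 without WT 3 and -0.06 without WT 3 and mutant 4. The part of Xist or of embryo sex in this was not tested.

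Klf4 had values of 5.36, 5.79, 5.67 and 5.91 in mutants and of 5.62, 5.57, 6.05 and 5.63 in WT, so WT 3 was the highest here. Its difference was -0.03 (-0.40 to 0.33) with all arrays and 0.08 without WT 3. No scanner values were used, so it is not known whether a signal near the array's median is above background.

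Zfp42 (Rex1), a zinc finger protein that marks naive pluripotent cells, varied most. Its values were 5.71, 5.72, 6.34 and 5.94 in mutants and 6.67, 7.34, 5.62 and 5.42 in WT. The WT embryos parted into a high pair, embryos 1 and 2, and a low pair, embryos 3 and 4, with all 4 mutants between them. The SD was 0.29 in mutants and 0.90 in WT, and the spread within groups exceeded that of 97.6% of all genes. The difference was -0.33 with a 95% interval from -1.16 to 0.50, or from 0.446-fold to 1.41-fold. Without WT 2 it was 0.03, without WT 3 -0.55 and without WT 4 -0.61.

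**Figure D2:**
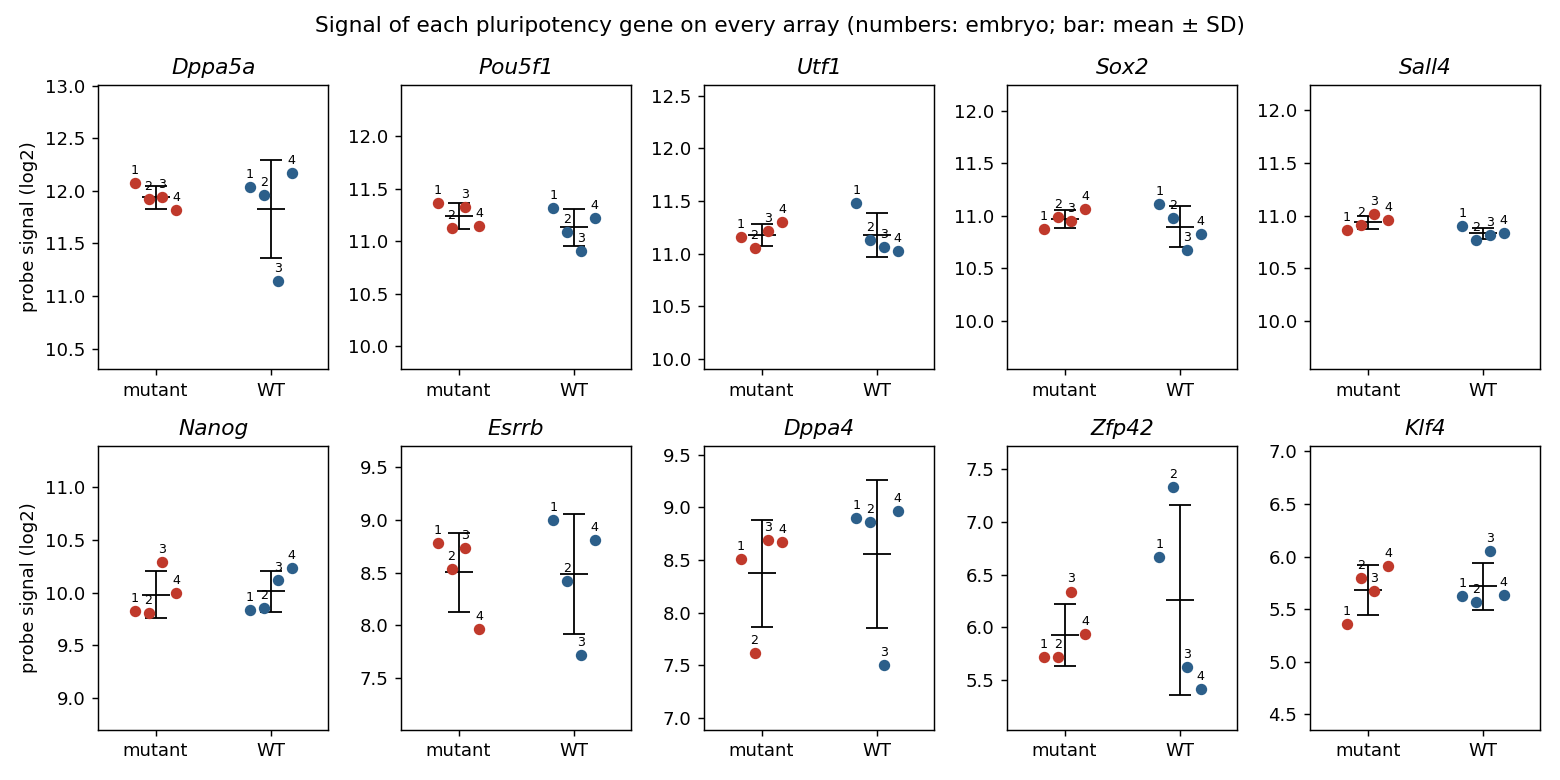
Probe signal (y axis, log2) of each gene on every array, with 1 numbered point per embryo, mutants left of WT, and bars for the mean ± SD of 4 embryos. Every panel spans the same height of 2.7 log2 units, so that the tight values of Sall4 and the wide ones of Zfp42 and Dppa4 can be set side by side.

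Dppa4, a chromatin protein that works together with Dppa2, was measured by 2 probes that carry the same 4 accessions in the annotation and disagree. The brighter probe had values of 8.51, 7.62, 8.70 and 8.67 in mutants and of 8.90, 8.86, 7.50 and 8.97 in WT. On it, 1 embryo of each group, mutant 2 and WT 3, lay far below the rest. The difference was -0.19 (95% interval -0.96 to 0.58). The other probe had values of 7.57, 7.08, 7.95 and 9.31 in mutants and of 8.29, 7.38, 6.90 and 7.07 in WT. Its highest array was mutant 4, and its difference was 0.57 (-0.46 to 1.59), opposite in sign. Across the 8 arrays the probes correlated with r = 0.458. WT 3 was lowest on both, mutant 2 was lowest of the mutants on both, and WT 4 was highest of the WT arrays on the brighter probe and second lowest on the other. Without WT 3, the difference on the brighter probe was -0.54 (unadjusted p 0.06 and limma adjusted p 0.9999), and without mutant 2 it was 0.06. Without both WT 3 and mutant 4, the arrays of high Xist, it was -0.64, past an unadjusted p of 0.05 (limma adjusted p = 0.986), where 4.66% of all genes passed; no other alternative brought any of the 10 genes past it for genotype. The genome position of either probe is not given by the annotation used, and cross-hybridisation to related sequences was not tested.

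The array of WT 3 had the lowest of the 8 values for 5 of the 10 genes (Pou5f1, Sox2, Esrrb, Dppa4 and Dppa5a) and the highest for Klf4. The same array was lowest for 12.1% of all genes and for 32% of the genes above the 90th percentile of signal, and highest for 24.2% of all genes. Dppa5a, Esrrb and Dppa4 lay 0.74, 0.78 and 0.96 below their means of 8 arrays there. Along with them, the mean of the 7 erythroid markers measured was 5.46 on WT 3 and 4.78 to 5.19 on the other arrays, that of the 7 macrophage markers was 5.42 and 4.84 to 5.21, and that of the 8 mesenchyme markers was 5.71 and 5.21 to 5.44. WT 3 was the highest array for 4 of 7 erythroid, 4 of 7 macrophage and 3 of 8 mesenchyme markers. No marker can be called absent on these arrays, since no detection limit is set, and the part of these markers or of the narrow distribution in the values of WT 3 was not tested.

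**Figure D3:**
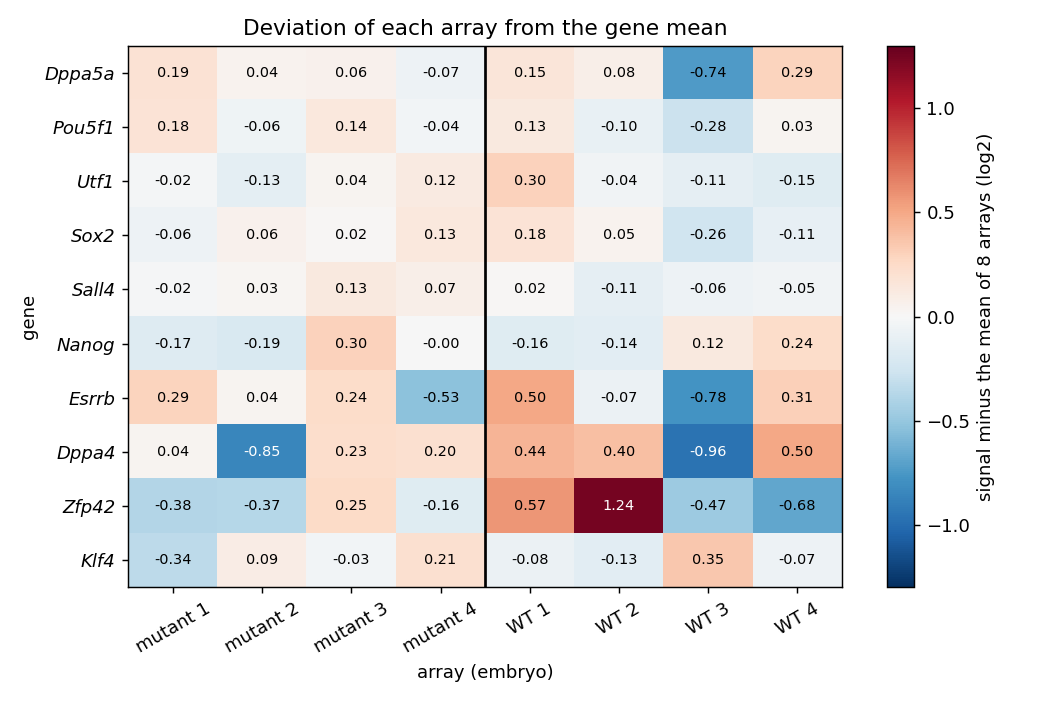
Deviation of each array (columns, mutants left of WT) from the mean of the 8 arrays for each gene (rows), in log2 units, printed in the cells and coloured red above and blue below the mean. WT 3 is below the mean for 8 of the 10 genes, down to -0.96 for Dppa4, and the WT embryos 1 and 2 have the highest Zfp42, 0.57 and 1.24 above its mean.

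**Figure D4:**
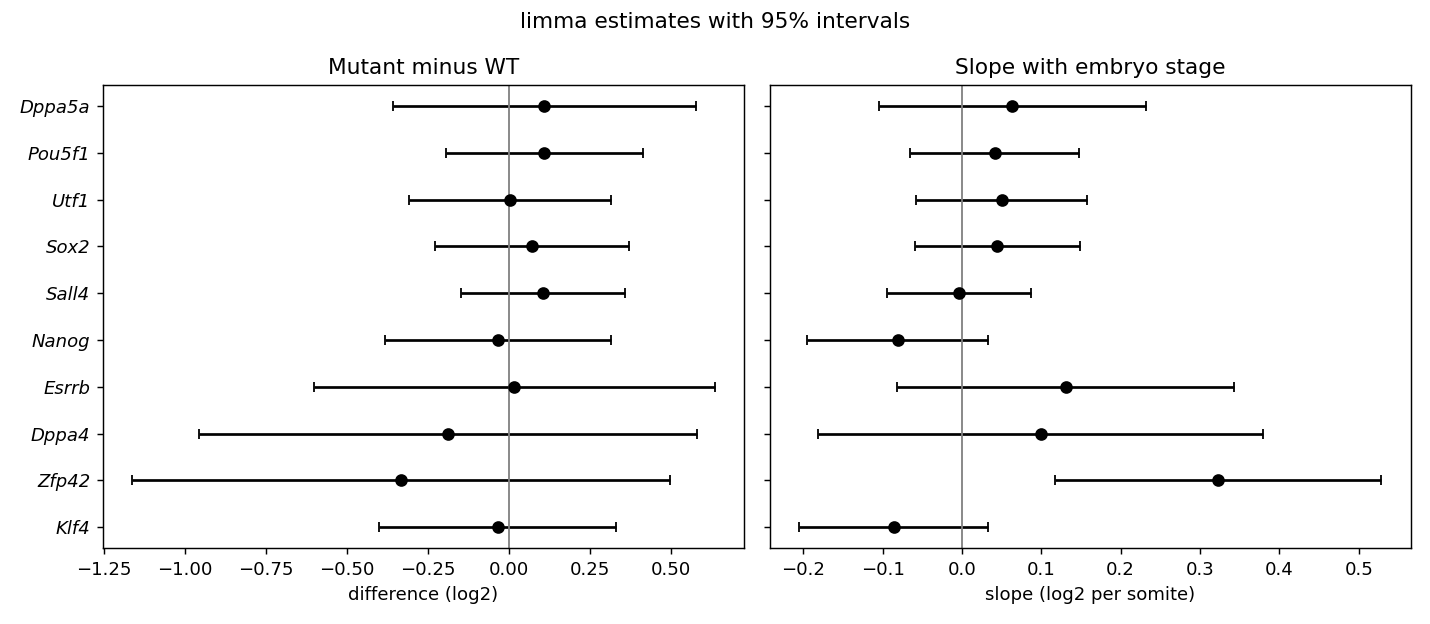
limma estimates (points) with 95% intervals (bars) for each gene: mutant minus WT on the left (log2) and the slope with embryo stage on the right (log2 per somite). All 10 intervals on the left include 0, and on the right the interval of Zfp42, 0.12 to 0.53, is the only 1 of 10 that does not.

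The second comparison asked whether the genes follow the stage of the embryo. Signal was regressed on somite number in a limma model that also held genotype. No slope passed at an adjusted p under 0.05, in the 10 genes or in all 19938. At an unadjusted p under 0.05, 1 of the 10 slopes passed, that of Zfp42, against 9.74% of all genes (5.02% with a positive and 4.72% with a negative slope). Slopes were above 0 for 7 of 10 genes and for 40.5% of all genes. The unadjusted calls over all genes were 1000 positive and 942 negative, and 1419 and 491 after median centring. Of the other slopes, that of Esrrb was 0.13 (95% interval -0.08 to 0.34), that of Nanog -0.08 (-0.19 to 0.03), that of Klf4 -0.09 (-0.21 to 0.03) and that of Pou5f1 0.04 (-0.07 to 0.15). Sall4 was flat, with a slope of -0.0040 (-0.09 to 0.09). The count of slopes depended on WT 4, the embryo of 21 somites. Without it 5 of the 10 genes passed the unadjusted threshold, 4 with a positive and 1 with a negative slope, against 10.6% of all genes. These were Esrrb at 0.33, Dppa5a at 0.22, Dppa4 at 0.30, Klf4 at -0.18 and Zfp42 at 0.28, with limma adjusted p between 0.351 and 0.472. With all arrays the slopes of Dppa5a and Dppa4 were 0.06 (-0.10 to 0.23) and 0.10 (-0.18 to 0.38). Of the genes that passed without WT 4, Esrrb, Dppa4 and Dppa5a had their lowest value on WT 3 and Klf4 its highest. The part of WT 3 in that count was not tested. With WT 4 kept and WT 3 left out, the slopes were 0.06 for Esrrb, -0.06 for Klf4, -0.012 for Dppa4 and -0.0087 for Dppa5a. WT 4 also had the highest mean of hindgut markers, mostly through Krt8 and Krt18, and the part of these in the slopes was not tested.

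The slope of Zfp42 was 0.32 ± 0.09 log2 units per somite (SE), with an unadjusted limma p of 0.00606 and an adjusted p of 0.42. In order of stage, the values were 5.42 at 21 somites, 5.94 at 21 to 22, 5.62 at 22, 5.72 at 22 to 23, 6.34 at 23, 5.71 at 24, and 6.67 and 7.34 in the 2 embryos of 25 somites. Those 2 were the highest of the 8, both were WT, and no mutant had more than 24 somites. Without them the slope was -0.0060 (limma adjusted p = 0.999). Within groups, a line through the 4 embryos had a slope of -0.04 in mutants and 0.41 in WT. The test of this difference in slope gave -0.45 (95% interval -0.87 to -0.04), an unadjusted limma p of 0.0362 and an adjusted p of 0.999, where 4.52% of all genes had an unadjusted p under 0.05. It was the only 1 of the 10 genes past that unadjusted threshold, and none passed it without mutant 1, mutant 4, WT 2 or WT 3. At 25 somites stage and genotype cannot be told apart.

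**Figure D5:**
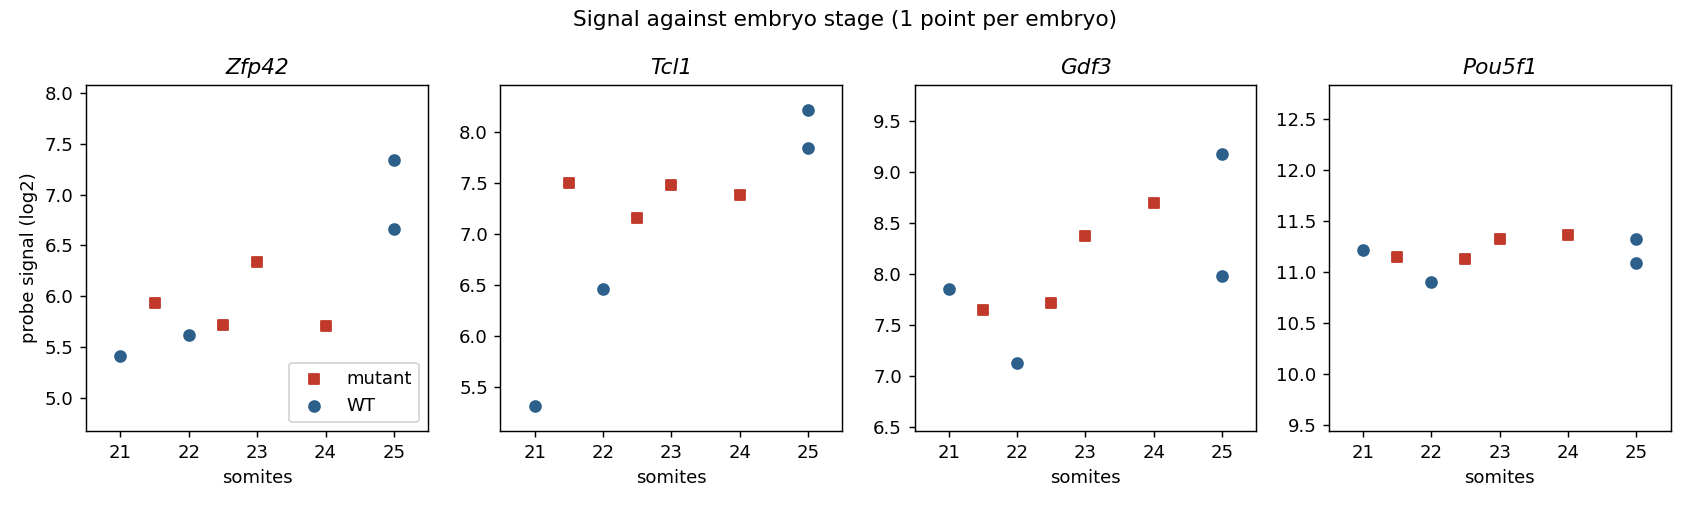
Probe signal (y axis, log2, the same height of 3.4 units in each panel) against the somite number of the embryo (x axis, midpoint where the label gives a range), with squares for mutants and circles for WT. Zfp42 and Tcl1 are highest in the 2 WT embryos of 25 somites, where Zfp42 is 6.67 and 7.34, and Pou5f1 shows no trend.

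Other genes of the network were read as lists. Of 14 measured partner factors, 0 passed an unadjusted p of 0.05 in either direction for genotype, with a median difference of 0.06. Those of smallest p were Nr5a2, a nuclear receptor able to stand in for Oct4 in reprogramming, at 0.37 ± 0.21 (SE), and Sall1, a relative of Sall4, at -0.27 ± 0.17. Klf5, a Krüppel-like factor, had the highest mean signal (8.65 in mutants and 8.80 in WT), and Foxd3 the lowest (5.45 in mutants and 5.41 in WT). With stage, 2 of the 14 partners had a positive and 1 a negative slope at an unadjusted p under 0.05, where 5.02% of all genes had a positive and 4.72% a negative one. The smallest p belonged to Tcl1, a coactivator of the kinase Akt, with a slope of 0.50 ± 0.10 (limma, unadjusted p = 0.000825 and adjusted p = 0.312). Tcl1 was 7.38, 7.16, 7.48 and 7.50 in mutants and 7.84, 8.22, 6.46 and 5.31 in WT. The mutants were level, and the WT embryos of 25 somites were again the highest and those of 21 and 22 the lowest. Without the embryos of 25 somites its slope was 0.14 (limma adjusted p = 0.999). Within groups the slope of Tcl1 was -0.02 in mutants and 0.63 in WT. This difference in slope was -0.65 (limma, unadjusted p = 0.00232 and adjusted p = 0.856), where 4.52% of all genes had an unadjusted p under 0.05. Without mutant 4 it did not pass that p. With somite number as covariate Tcl1 passed it for genotype, higher in mutants, beside 6.55% of all genes.

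Of 16 measured genes known as targets of the network, 1 was higher in mutants and 0 lower by the same threshold. Beside this, 2.72% of all genes were higher and 1.96% lower. The median difference of the 16 was 0.09. The 1 gene that passed was Lefty2, a secreted inhibitor of Nodal signalling. It was at 5.29, 7.23, 7.13 and 5.77 in mutants and 5.10, 5.79, 5.61 and 5.30 in WT. Mutants 2 and 3 were high, and mutants 1 and 4 lay within the range of the WT embryos. The difference was 0.91 ± 0.40 (SE), with an unadjusted limma p of 0.0464 and an adjusted p of 0.973, and without mutant 2 it was 0.62. Lefty2 did not pass the unadjusted threshold without mutant 2, mutant 3, WT 1, WT 3 or WT 4. Its paralogue Lefty1 differed by 0.42 ± 0.24. Dppa3 (Stella) had the highest signal of the list (11.41 in mutants and 11.27 in WT), and the growth factor gene Fgf4 the lowest (5.61 in mutants and 5.75 in WT). Gdf3, a ligand of the TGF-beta family, had the slope of smallest p, 0.31 ± 0.11 per somite (limma, unadjusted p = 0.0162 and adjusted p = 0.471). It did not pass the unadjusted threshold without the embryos of 25 somites, nor without WT 2, where the slope was 0.19.

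Genes of the primed state, which the epiblast enters after implantation, had 0 of 11 members past an unadjusted p of 0.05 in either direction and a median difference of -0.03. Otx2, a regulator of this state and the dimmest of the list, was at 4.45 in mutants and 4.29 in WT, and the brightest, the Wnt effector Lef1, at 9.31 in mutants and 9.49 in WT. The POU factor Pou3f1 had the slope of smallest p, -0.09 ± 0.05 per somite. Regulators of other lineages, several of which Oct4, Sox2 and Nanog repress in embryonic stem cells, had 0 of 13 past that threshold and a median of -0.09, with 1 of 13 above 0, where 44.6% of all genes were above 0. WT 3 was the highest array for 8 of the 13, and the part of this array in the count was not tested. Neurog1, a neural factor, was at 4.68 ± 0.16 in mutants and 5.03 ± 0.26 in WT (SD, n = 4 each), a difference of -0.35 (limma adjusted p = 0.973) that lay near the unadjusted threshold and passed it in 5 alternatives, among them without WT 1 (-0.47). Neurog1, like Foxd3, Otx2, Eomes and Sall2, had a mean signal below the median of all genes. Whether such signals are above background is not known. Gata4, a factor of heart and endoderm, was at 5.79 ± 0.15 in mutants and 6.01 ± 0.15 in WT. Cdx2, which acts in hindgut and trophoblast, had the highest signal of the list (8.01 in mutants and 8.10 in WT), and Eomes the lowest (4.02 in mutants and 4.12 in WT). Hand1, a mesodermal factor, had the slope of smallest p, -0.19 ± 0.05 per somite. Of 16 measured family relatives, 0 passed in either direction for genotype, with Sall2 at 0.29 ± 0.19, and 2 of the 16 had a positive and 1 a negative slope at that p, beside the same 5.02% and 4.72% of all genes. Sall3 had the slope of smallest p there, -0.18 ± 0.05 per somite. Neither Hand1 nor Sall3 passed the unadjusted threshold for the slope without the embryos of 25 somites.

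The genes did not vary as a block across embryos. Among the 45 pairs, the closest were Esrrb with Dppa5a (r = 0.855 over 8 arrays), Pou5f1 with Esrrb (0.85), Pou5f1 with Dppa5a (0.801) and Sox2 with Utf1 (0.73). Without WT 3 these correlations were 0.793, 0.686, 0.447 and 0.796 in the same order. Klf4 ran opposite to 3 of these genes, with r = -0.805 for Esrrb, -0.795 for Dppa5a and -0.771 for Pou5f1, and -0.636, -0.688 and -0.559 without WT 3. Points of such correlations share an array, with its distribution and its makeup of cells. Of 9580 genes of above-median signal compared with Pou5f1, the nearest were Ak1 (r = 0.99) and Sh2d3c (0.968), and its nearest fellow member Esrrb came 149th. The nearest of 9580 genes over only 8 arrays have a high r by selection alone. These neighbours are therefore given as a description, and no link between the genes is drawn from them. The nearest to Sox2 was Prpf31 (0.967), to Nanog Tbc1d10a (0.94), to Sall4 Cul4a (0.969), to Utf1 Cend1 (0.993), to Zfp42 Mdc1 (0.965), to Esrrb Pdzd11 (0.976), to Klf4 Nme6 (0.98), to Dppa4 Wsb2 (0.951) and to Dppa5a Zfp119b (0.986). The second nearest were Gart (0.952) for Sox2, Npy (0.939) for Nanog, Dctn1 (0.966) for Sall4, Rps19 (0.939) for Utf1, Pip4k2b (0.954) for Zfp42, Grcc10 (0.968) for Esrrb, Evpl (0.962) for Klf4, Abhd13 (0.941) for Dppa4 and Rps18 (0.985) for Dppa5a. The closest place of any member in the order of another was 137th (Esrrb to Dppa5a), and the next was 141st (Dppa5a to Esrrb).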

How the data were processed

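RNA of PGCs sorted from single embryos was isolated on micro columns, amplified and labelled with biotin by NuGEN kits (Ovation FFPE WTA, Encore), per the labels' protocols. The deposited table holds 1 processed log2 signal per probe and array, log2 being taken from its range, while how the authors corrected, normalized and summarised the signals was not stated in the labels used here. No further scaling was applied. Of 35557 probes, 21789 had 1 gene symbol in the platform annotation, 1621 had several and 12147 had none. Probes with 1 symbol gave 19938 genes, each by its probe of highest mean (999 had several).

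All genes were fitted by limma 3.58.1 (R 4.3.3, lmFit and eBayes), as group means or with somite number (midpoint of a range) and genotype, with p-values adjusted over all genes by the Benjamini-Hochberg method (threshold 0.05). Intervals are 95% limma intervals, SE is limma's, and SD is over 4 embryos. Within-group lines are least squares. Scripts were tested on simulated data. Alternatives were 2 normalizations, filters, probe choices, the variance model, covariates, a replicate block, stage coding and left-out embryos. Every member was named. Each companion list gave its 2 genes of smallest p for genotype, 1 for the slope, and its brightest and dimmest gene. Each member also gave the 2 genes most like it. The members and lists were chosen with earlier results of these data known. Spp1, T and Pou2f1 were not analysed here, and the entry Oct6 is an older name of Pou3f1. The number of arrays limits the precision.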

Additional observations from a re-analysis of the deposited data

Results flagged for a closer look

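In 2 of the 20 sets of 4 values (10 genes in 2 groups), 1 array stood apart from the other 3 by Dixon's criterion, and chance alone picks out about 5% of such sets. Both were WT 3, and sets of the same group share their arrays, so they are not independent. Dppa4 on its brighter probe was 7.50 on WT 3, where the next WT value was 8.86, a gap of 0.926 of the range of the group. On its other probe WT 3 was at 6.90, close to WT 4 at 7.07. Klf4 was 6.05 on WT 3, where the next WT value was 5.63, a gap of 0.864 of the range. In mutants, Dppa4 on mutant 2 (7.62, against 8.51 for the next) had a gap of 0.825 of the range, just under the critical value.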

How the results depend on the processing

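No member passed an adjusted p of 0.05 under any alternative. For mutant against WT the number of genes past that threshold was 0 in every alternative, and the unadjusted count was 729 to 1715 with 1 embryo left out (the highest without WT 1) and 538 among genes above the median signal, where fewer were tested. For the somite slope, 0 to 2 genes passed with 1 embryo left out, 5 without WT 3 and mutant 4 together, and 1 with the upper end of somite ranges. These genes, read after their values were seen, were Gdap10, Commd6, Podxl, Fmr1nb, Snora16a, Igfbp2, Mir15a and Mir30e, and none was a member. The unadjusted slope count was 1298 to 2318 with 1 embryo left out, 1046 among genes above the median signal and 936 without the embryos of 25 somites. That of slope differences was 847 to 1113 with 1 embryo left out and 546 above the median signal. Same-numbered embryos did not deviate together (correlations over genes of -0.05, 0.04, -0.19 and 0.10 for numbers 1 to 4), and 0 of 4 mutants correlated best with the WT embryo of its number. With the replicate block 891 genes had an unadjusted p under 0.05 and 0 an adjusted one. The block changed no call among the members or the companion lists. Of the hindgut markers, Krt18 passed the unadjusted threshold with the block, lower in mutants, and did not pass in the main comparison. It also passed, lower in mutants, without WT 1, without WT 2 and with somite number as covariate.

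At an unadjusted p of 0.05, the members past it for genotype numbered 0 in each alternative but the removal of WT 3 and mutant 4 together (1, Dppa4). For the slope it was 1 (Zfp42), except for 5 without WT 4 and 0 without the embryos of 25 somites. Where 1 value per gene was tested, counts of the companion lists moved by at most 1 gene in a direction for genotype. In 5 alternatives Neurog1 passed, among them median centring and the somite covariate.

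Small differences changed sign, and the cause was not tested. After quantile normalization Sox2 was at -0.0072, Utf1 at -0.064, Esrrb at -0.025 and Klf4 at 0.0044, and after median centring Nanog was at 0.028, Klf4 at 0.026 and the Sall4 slope at 0.020. Dppa4 was at 0.19 as the mean of both probes and 0.57 on the other probe. Without WT 3 and mutant 4, Sox2 was at -0.035, Utf1 at -0.072, Esrrb at -0.061, Klf4 at 0.00071 and Dppa5a at -0.077, and the slopes of Esrrb and Dppa5a were -0.0076 and -0.028. Without the embryos of 25 somites the slopes were -0.088 for Sox2, -0.031 for Utf1, -0.0060 for Zfp42, -0.18 for Dppa4 and -0.049 for Dppa5a. With 1 embryo left out, differences ran from -0.14 to 0.041 for Nanog, -0.0025 to 0.14 for Sox2, -0.046 to 0.11 for Utf1, -0.61 to 0.026 for Zfp42, -0.24 to 0.20 for Esrrb, -0.11 to 0.076 for Klf4, -0.54 to 0.064 for Dppa4 and -0.12 to 0.22 for Dppa5a. The difference of Pou5f1 ran from 0.034 to 0.17. Slopes ran from 0.058 to 0.33 for Esrrb, -0.18 to -0.059 for Klf4, 0.019 to 0.099 for Pou5f1, 0.22 to 0.40 for Zfp42, -0.019 to 0.0063 for Sall4, -0.012 to 0.30 for Dppa4 and -0.0087 to 0.22 for Dppa5a.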
